A study of Mus musculus with 6 samples.

Results

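The genes that anchor the epidermis to its basement membrane were followed in bulk RNA-seq of full-thickness dorsal skin. The group holds 9 genes of the 21959 in the deposited table, chosen by symbol: Col17a1, the integrin genes Itgb4, Itga6, Itga3 and Itgb1, the laminin genes Lama3 and Lamb3, and the plakin genes Dst and Plec. Skin was taken from 7-week-old male C57BL/6 mice that had been shaved in telogen, the resting phase of the hair cycle. The 3 control mice received vehicle, a mixture of 30% dipropylene glycol and 70% distilled water, applied daily to the back over 7 days, and the other 3 received 3% rebamipide, a drug developed for gastric ulcer, in the same way. Each library was made from poly-A RNA of about 200 mg of skin. It therefore holds RNA of epidermis, hair follicles, dermis, fat, vessels and muscle together, and fewer cells of a type cannot be told apart from less RNA per cell.

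A hemidesmosome is the junction that fixes a basal keratinocyte to the basement membrane beneath it. Outside the cell, integrin α6β4 and the transmembrane collagen XVII hold on to laminin-332, and inside the cell the plakins plectin and BP230 tie the same complex to the keratin 5 and keratin 14 filaments. Integrin α3β1 binds laminin-332 as well, but connects to actin. Inherited loss of several of these genes causes epidermolysis bullosa, in which the skin blisters. Not all of them are confined to keratinocytes: Itgb1 is made by nearly every cell, Itga6 also by endothelial cells, Itgb4 also by Schwann cells, and Plec and Dst have isoforms of muscle and nerve.

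In the deposited table Col17a1 lies on chromosome 19 (47634783 to 47680533, minus strand) and Plec on chromosome 15 (76055174 to 76116774, minus strand). Itgb4 (115865535 to 115899238, plus strand) and Itga3 (94935300 to 94967627, minus strand) are both on chromosome 11. Itga6 is on chromosome 2 (71575960 to 71688760, plus strand) and Itgb1 on chromosome 8 (129412135 to 129459681, plus strand). Dst (33947306 to 34347742) and Lamb3 (192890007 to 193026186) are both on the plus strand of chromosome 1. The submitters' processing notes name GRCm39, and reads were counted over whole genes, so isoforms are not separated. The interval listed for Lamb3 contains G0s2 and Hsd11b1 on the opposite strand, with 662 to 2220 counts per vehicle library and 3050 to 7482 per rebamipide library, and the strand setting of the counting is not given in the sources used here. The interval of Plec overlaps that of Parp10 on the same strand, which had 520 to 1372 counts.

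RefSeq promoter windows (GRCm38.p6, 250 bases before to 50 after a start site) are reported for 5 of the 9 genes, with 8 windows in all. These 8 windows include none of Lama3, which does not show that Lama3 has none. They are shown for a gene whose level varied most between rebamipide mice (Col17a1), for Lamb3 and Itga3, which were called lower, and for Itgb1, with the fitted change closest to 0 of the 9 under TMM scaling. Capitals mark GC boxes (GGGCGG on either strand), the binding sequence of SP1.
Col17a1, chr19:47691993-47692292, minus strand: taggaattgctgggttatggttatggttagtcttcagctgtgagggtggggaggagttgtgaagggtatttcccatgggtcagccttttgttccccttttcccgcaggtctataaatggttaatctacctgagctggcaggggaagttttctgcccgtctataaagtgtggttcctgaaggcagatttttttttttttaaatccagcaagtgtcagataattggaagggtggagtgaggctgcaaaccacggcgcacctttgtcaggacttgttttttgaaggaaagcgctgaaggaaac
Lamb3, chr1:193301744-193302043, plus strand: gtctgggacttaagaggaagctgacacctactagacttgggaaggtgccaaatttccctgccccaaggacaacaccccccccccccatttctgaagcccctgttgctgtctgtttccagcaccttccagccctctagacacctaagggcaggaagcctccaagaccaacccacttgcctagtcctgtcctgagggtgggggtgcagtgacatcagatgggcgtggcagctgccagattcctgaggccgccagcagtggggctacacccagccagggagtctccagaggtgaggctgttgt
Itga3, chr11:95076665-95076964, minus strand: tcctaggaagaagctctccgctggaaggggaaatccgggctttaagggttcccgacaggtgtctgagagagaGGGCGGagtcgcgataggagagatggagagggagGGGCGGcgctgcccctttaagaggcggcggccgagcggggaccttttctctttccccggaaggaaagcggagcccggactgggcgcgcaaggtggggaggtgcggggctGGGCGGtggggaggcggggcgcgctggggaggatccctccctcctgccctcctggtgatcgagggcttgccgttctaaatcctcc
Itgb1, chr8:128685404-128685703, plus strand: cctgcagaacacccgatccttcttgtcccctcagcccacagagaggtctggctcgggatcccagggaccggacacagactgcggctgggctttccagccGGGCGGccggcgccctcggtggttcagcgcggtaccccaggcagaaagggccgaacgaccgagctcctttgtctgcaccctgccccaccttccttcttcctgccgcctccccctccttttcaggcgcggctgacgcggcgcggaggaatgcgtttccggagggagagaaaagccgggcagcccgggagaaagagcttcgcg
The Col17a1 and Lamb3 windows hold no GC box and have a GC content of 46.3% and 59.3%, while the Itga3 window holds 3 and the Itgb1 window 1, with a GC content of 66.7% and 67.3%. The window at the other start of Itga3 holds 1 GC box and has a GC content of 52.3%, which is below that of Lamb3. Dst has a window at each of its listed starts, the upstream one with 4 GC boxes and a GC content of 70.3% and the downstream one with no GC box and 46%. Over the 8 windows, which leave out Lama3, 4 hold a GC box, against 35.7% of the 32851 mouse promoter windows. An AP-1 sequence (TGANTCA) is in 1 of the 8, at the second start of Itga3, against 7.81% of all windows. E-boxes (CANNTG) are in 7 of 8 against 72.3%, and the spaced core pair of the p53 and p63 family is in 8 of 8 against 70.2%. The last of these is loose enough to be in most promoters, and a match is a run of letters and not a binding site.

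Vehicle libraries held 38676018 to 39915276 counts and rebamipide libraries 32709801 to 34706852. Values are counts normalized to library size (CPM, with TMM factors), and 3 counts, the most that a count of 0 allows for counting error, correspond to 0.0601 to 0.117 CPM. After this normalization the median log2 fold change over the 14875 genes tested was -0.17. The rebamipide libraries differed in the markers of the tissue itself. The 6 basal keratinocyte markers summed to 2439 to 3645 CPM in vehicle skin and to 989, 525 and 1.49 CPM in rebamipide libraries 1, 2 and 3. In library 3, 3 of the 6 (Krt14, Krt15 and Dsg3) were at 0 counts, and the 7 suprabasal markers summed to 5.61 CPM, so that the library labelled as skin held almost none of the keratinocyte marker RNA. The 7 endothelial markers summed to 240 to 588 CPM in vehicle skin and to 1101 to 1499 CPM in rebamipide skin, and 6 of the 7 were higher in every rebamipide library, as were 24.5% of all genes. The 6 adipocyte markers summed to 1093 to 2542 CPM in vehicle skin and to 8515 to 16581 CPM in rebamipide skin, with 5 of the 6 higher in every rebamipide library and Lep overlapping (47.9 to 97.1 against 30.5 to 96.6 CPM). The suprabasal sums of rebamipide libraries 1 and 2, at 1571 and 1053 CPM, lay within the vehicle range of 986 to 6145 CPM, and 5 of the 7 markers overlapped between the groups. The sums overlapped as well for Schwann cell markers (178 to 486 against 198 to 365 CPM), for fibroblast markers (12310 to 18767 against 1972 to 15795 CPM), for skeletal muscle markers (4998 to 24690 against 253 to 31043 CPM) and for leukocyte markers (65 to 146 against 28.2 to 128 CPM). For fibroblast and leukocyte markers this overlap came from rebamipide library 1 alone. Libraries 2 and 3 lay below the vehicle range, with 3711 and 1972 CPM for fibroblast and 57.6 and 28.2 CPM for leukocyte markers. The skeletal muscle sum of library 3, at 253 CPM, also lay below the vehicle range. Smooth muscle and pericyte markers summed to 412 to 569 against 680 to 1130 CPM, and the 4 brown adipocyte markers to 163 to 297 against 4494 to 12061 CPM. Within these lists Elovl3, a brown adipocyte marker with 129 to 238 CPM in vehicle skin, went the other way (33.3 to 83.1 CPM in rebamipide skin), and so did S100b among the 5 Schwann cell markers (4.19 to 6.2 against 36.1 to 78.6 CPM). The part of these differences in the values below was not tested, and the edgeR value of each of the 9 genes is given with and without rebamipide library 3.

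All 9 genes were counted in every library and passed the expression filter. Itga3, Lama3 and Lamb3 fell in rebamipide skin, with means 2.49-fold, 5.6-fold and 2.45-fold below those of vehicle skin, and 0 of the 9 rose (edgeR's quasi-likelihood test, Benjamini-Hochberg adjusted p under 0.05). The calls were thus 3 of 9 lower, where 6.51% of all genes tested were called lower and 14.1% higher. With DESeq2, 5 of 9 were lower and 0 higher, against 17% of all genes lower. At an unadjusted edgeR p under 0.05, 5 of 9 were lower and 0 higher, against 18.8% and 20.9% of all genes. The fitted log2 fold change was negative for 8 of 9, against 56.9% of all genes, and its median over the 9 was -1.29. In 6 genes (Col17a1, Itgb4, Itga3, Lama3, Lamb3 and Dst) all rebamipide values lay below all vehicle values, which held for 24% of all genes tested. Itga6, Itgb1 and Plec overlapped between the groups. Without rebamipide library 3, edgeR called 1 of the 9 lower (Lama3) and 382 of all genes. DESeq2 then called 5 of the 9, with Col17a1 in place of Dst, and 1865 of all genes. Without vehicle library 2 and without rebamipide library 2, edgeR called 0 of the 9 and 0 of all genes lower, and without vehicle library 3 it called 0 of the 9 and 833 of all genes. In these 3 fits, in the same order, DESeq2 called 3, 5 and 5 of the 9 and 1419, 2273 and 3043 of all genes lower. Without rebamipide library 1 edgeR called 5 of the 9 and 1971 of all genes lower, and DESeq2 called 7 and 4189.

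**Figure D1:**
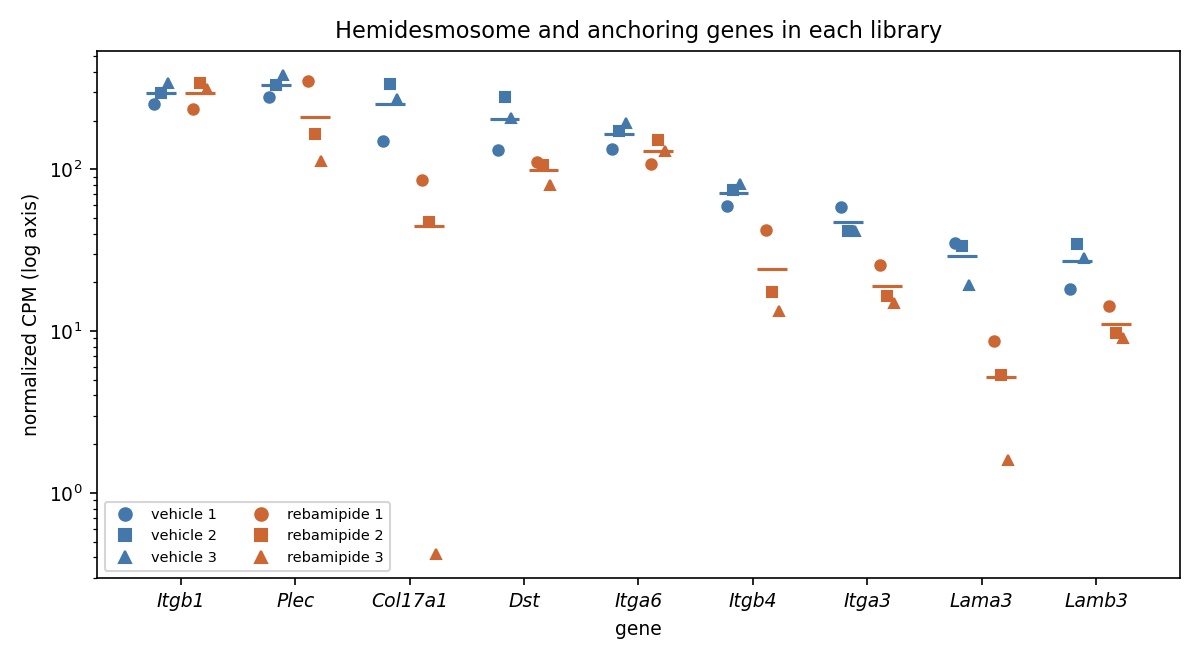
Normalized CPM (log axis) of each of the 9 genes in the 3 vehicle libraries (blue) and the 3 rebamipide libraries (orange), with horizontal lines at the group means. Col17a1 in rebamipide library 3 lies far below all other points, at 0.42 CPM, while the points of Itgb1 lie together in both groups.

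Of the integrin genes, Itga3 was called and Itgb4, Itga6 and Itgb1 were not. Itgb4, the β4 chain, which pairs with α6 alone, was at 59, 74 and 81 CPM in vehicle skin and at 42, 17.4 and 13.3 CPM in rebamipide libraries 1, 2 and 3. The groups did not overlap, and rebamipide library 1 lay closest to the vehicle range. The log2 fold change was -1.56 (standard error, SE, 0.46, edgeR adjusted p = 0.0581), which missed the threshold, while DESeq2 called it (adjusted p = 0.00826). It was -1.26 when rebamipide library 3 was left out (adjusted p = 0.116 by edgeR and 0.0391 by DESeq2). Its partner Itga6, the α6 chain, was at 133, 173 and 192 CPM in vehicle skin and at 108, 151 and 129 CPM in rebamipide skin. These ranges overlapped, and the log2 fold change was -0.36 (SE 0.23, edgeR adjusted p = 0.279). With scaling by total counts alone, which moves the median of all genes to -0.78, Itga6 was called lower (-0.99, edgeR adjusted p = 0.019), as were 25.2% of all genes. Itga6 was at -0.35 without rebamipide library 3 (edgeR adjusted p = 0.479).

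Itga3, the α3 chain of the other laminin-332 receptor, was at 58.5, 41.3 and 41.5 CPM in vehicle skin and at 25.5, 16.4 and 14.9 CPM in rebamipide skin. Every rebamipide library was lower, with a log2 fold change of -1.31 (SE 0.29, edgeR adjusted p = 0.0284). The value was -1.16 without rebamipide library 3 (adjusted p = 0.0809), which missed the threshold. Itgb1, the common β1 chain that pairs with α3 and with many other α chains, was at 252, 295 and 342 CPM in vehicle skin and at 235, 343 and 313 CPM in rebamipide skin. The group means were 296 ± 45 and 297 ± 55.8 CPM (SD, n = 3), and the log2 fold change was 0.00 (SE 0.24, edgeR adjusted p = 0.995). Scaled by total counts alone, it was -0.63 (adjusted p = 0.0517), and without rebamipide library 3 it was -0.03 (adjusted p = 0.96). On the scale of log2(FPKM + 1), which also divides by total counts, limma called Itgb1 lower (-0.62, adjusted p = 0.0299).

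Both laminin chains among the 9 genes fell. Lama3 (chromosome 18, 12466876 to 12716070, plus strand) encodes the α3 chain of laminin-332, the ligand of both integrins. Its level was 34.8, 33.6 and 19.3 CPM in vehicle skin and 8.66, 5.38 and 1.6 CPM in rebamipide skin, with no overlap. The log2 fold change was -2.48 (SE 0.63, edgeR adjusted p = 0.0406), and without rebamipide library 3 it was -2.05 (adjusted p = 0.0393). Lamb3, the β3 chain of the same trimer, was at 18.1, 34.7 and 28.4 CPM in vehicle skin and at 14.3, 9.67 and 9.12 CPM in rebamipide skin. It had a log2 fold change of -1.29 (SE 0.33, edgeR adjusted p = 0.0417), and -1.17 without rebamipide library 3 (adjusted p = 0.114). The vehicle and rebamipide libraries nearest to each other were 18.1 and 14.3 CPM.

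Col17a1 differed most between the rebamipide mice. It encodes collagen XVII, the transmembrane collagen also known as BP180, and had 7420, 16579 and 12647 counts in the vehicle libraries and 2601, 1213 and 11 counts in the rebamipide libraries. In CPM these are 149, 337 and 270 against 85.6, 47.3 and 0.42. The 3 rebamipide values span a factor of 204, where those of Itgb4 span 3.16, those of Lama3 5.4 and those of Itga6 1.4. Rebamipide minus vehicle came to -2.50 on the log2 scale (SE 1.41, edgeR adjusted p = 0.228), so that the largest of the 9 fitted differences missed the threshold. Without rebamipide library 3 it was -1.91 (SE 0.49, edgeR adjusted p = 0.0612), and DESeq2 then called it lower (adjusted p = 0.00121).

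The plakins stood between these cases. Dst, whose epidermal product BP230 links the hemidesmosome to keratin, was at 131, 278 and 207 CPM in vehicle skin and at 111, 107 and 79.8 CPM in rebamipide skin. The groups did not overlap, but the log2 fold change of -1.05 (SE 0.32) missed the threshold with an adjusted p = 0.0637 by edgeR and passed with 0.019 by DESeq2. Neither tool called it without rebamipide library 3 (-0.90, adjusted p = 0.172 by edgeR, and -0.87, adjusted p = 0.106 by DESeq2). Plec, which encodes plectin, was at 279, 333 and 384 CPM in vehicle skin and at 350, 164 and 113 CPM in rebamipide skin. Rebamipide library 1 lay within the vehicle range and the other two below it. Its log2 fold change was -0.67 (SE 0.44, edgeR adjusted p = 0.294), without rebamipide library 3 it was -0.36 (adjusted p = 0.586), and without rebamipide library 1 it was -1.25 (adjusted p = 0.0287). The summed markers of skeletal muscle, fibroblasts, leukocytes and suprabasal keratinocytes had the same order as Plec among the libraries of each group. Those of skeletal muscle summed to 4998, 21635 and 24690 CPM in vehicle skin and to 31043, 6719 and 253 CPM in rebamipide skin, and the part of any of these cells in the Plec level was not tested.

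**Figure D2:**
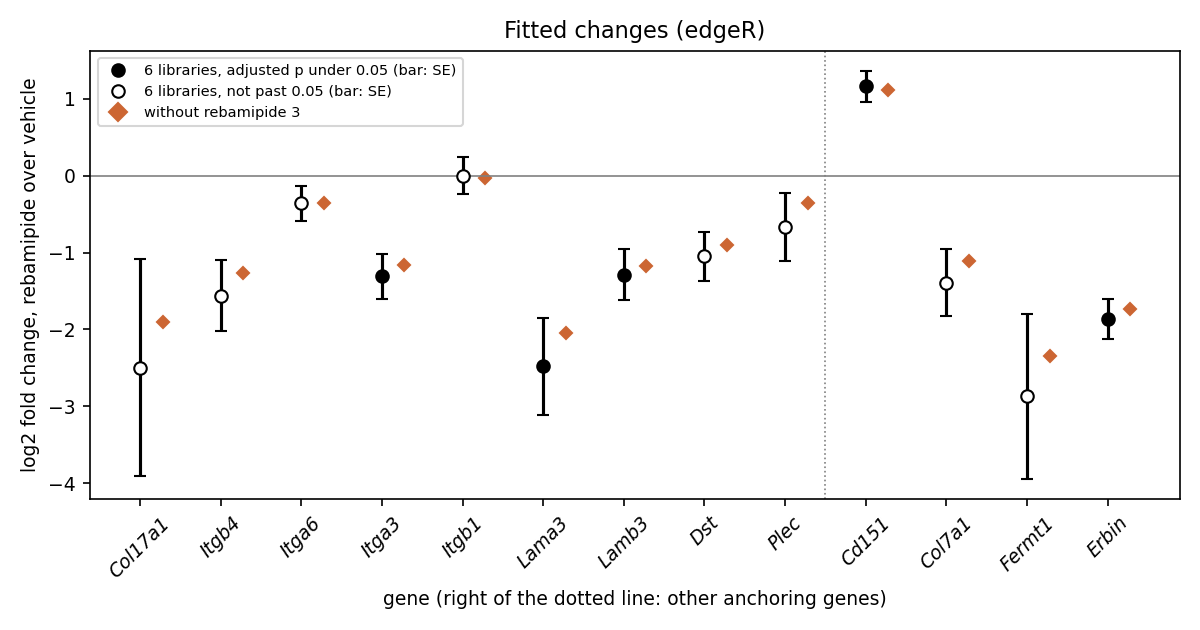
Log2 fold change of rebamipide over vehicle for the 9 genes and 4 other anchoring genes, with standard errors as bars, filled where the adjusted p was under 0.05 by edgeR, and the value without rebamipide library 3 as a diamond. The bar of Col17a1 is the longest of the 13, and Cd151 is the one gene above 0 among those called.

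Rebamipide library 3 sorts the 9 genes by how much signal was left where the keratin genes were missing. Krt5, the basal keratin to which hemidesmosomes attach, was at 34.3%, 16.5% and 0.0121% of its vehicle mean in rebamipide libraries 1, 2 and 3. Col17a1 was at 34%, 18.8% and 0.167%, and so followed Krt5 in libraries 1 and 2. Lama3 was at 29.6%, 18.4% and 5.48%, and Itgb4 at 58.8%, 24.4% and 18.6%. In library 3 Itga3, Lamb3, Plec and Dst were between 31.7% and 38.9%, Itga6 was at 77.9% and Itgb1 at 106%. A level of 348 counts for Itgb4 and 239 for Lamb3 in the library with 4 counts of Krt5 and 0 of Krt14 is far above counting error. The interval of Lamb3 contains G0s2 and Hsd11b1 on the opposite strand, with 7482 and 5818 counts in that library. Whether any of their reads were counted for Lamb3 was not tested. The Schwann cell markers summed to 365 CPM and the endothelial markers to 1499 CPM in that library, and their part in these levels was not tested.

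**Figure D3:**
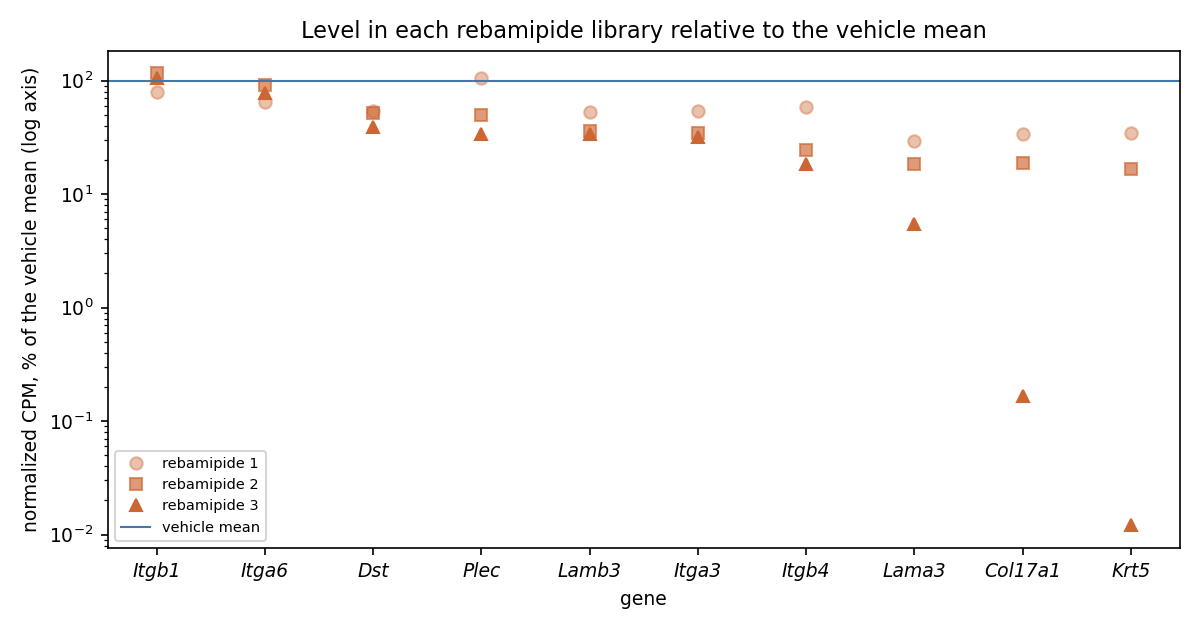
Normalized CPM in each rebamipide library as a percentage of the vehicle mean (log axis) for the 9 genes and Krt5, with the vehicle mean at 100% as a line. The 3 libraries lie closest together for Dst, Itga6, Itgb1, Lamb3 and Itga3, with a factor of 1.39 to 1.71 between highest and lowest. They part for Plec (3.08) and from Itgb4 (3.16) to Krt5, where library 3 falls to 0.0121%.

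Ratios between genes of the same library do not depend on the scaling between libraries, and 9 were compared, as log2 ratios of FPKM (counts per length and library total). With 3 libraries against 3 the smallest two-sided exact permutation p is 0.1, so no ratio could pass a threshold of 0.05. This smallest p was reached by 6 pairs (0.15 adjusted over the 9 pairs reported). Itga6 to Itgb4, the chains of 1 dimer, was at 0.79, 0.85 and 0.86 in vehicle skin and at 0.98, 2.73 and 2.90 in rebamipide skin (exact permutation p = 0.1). The vehicle mice were thus close to each other, with a standard deviation of 0.04, and rebamipide library 1 lay just above them. Itgb4 to Itgb1 was at -2.88, -2.78 and -2.86 against -3.27, -5.08 and -5.34, and Itga3 to Itgb1 at -2.59, -3.32 and -3.53 against -3.69, -4.87 and -4.88 (exact permutation p = 0.1 for each). Lama3 to Lamb3 was at 0.24, -0.75 and -1.25 against -1.42, -1.55 and -3.21 (exact permutation p = 0.1).

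Dst to Plec, the plakin pair, was at -1.95 ± 0.43 and -2.13 ± 0.63 (exact permutation p = 0.8). Col17a1 to Itgb4 was at 1.56, 2.41 and 1.96 in vehicle skin and at 1.25, 1.67 and -4.76 in rebamipide skin (exact permutation p = 0.2). Rebamipide library 2 lay within the vehicle range, library 1 just below it and library 3 apart from all others. Itga3 to Itga6 overlapped, with -1.14 ± 0.56 and -2.12 ± 0.62 (exact permutation p = 0.2).

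**Figure D4:**
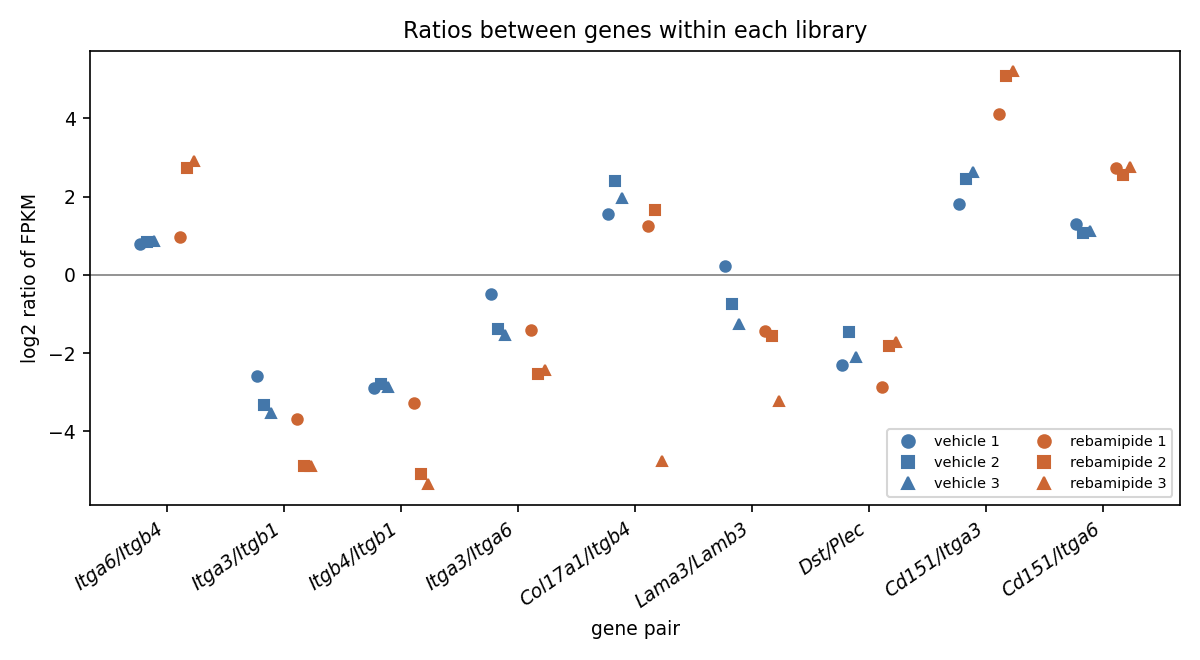
Log2 ratio of FPKM for 9 gene pairs, with 1 point per library, vehicle in blue and rebamipide in orange. The vehicle points of Itga6/Itgb4 and Itgb4/Itgb1 coincide within 0.1, and those of rebamipide libraries 2 and 3 are shifted by over 1.

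Per length, the order of the 9 genes in vehicle skin was Itgb1, Col17a1, Plec, Itga6, Itgb4, Itga3, Dst, Lamb3 and Lama3. Itgb1 had 89.8 ± 11.2 FPKM and ranked first in every library of both groups. Col17a1 had 51.7 ± 18.9 FPKM (SD, n = 3) and ranked second in each vehicle library, and in the rebamipide libraries it ranked 3, 4 and 9. Plec (22.7 ± 3.01 FPKM) and Itga6 (22.4 ± 3.5) did not differ beyond their spread, nor did Itgb4 (12.6 ± 1.65) and Itga3 (10.3 ± 2.44). The ranges of Dst (6.09 ± 2.1), Lamb3 (5.05 ± 1.49) and Lama3 (3.39 ± 1.06) overlapped as well. The length listed for Dst is 41619 bases over all its exons, and its isoforms use only part of them, which lowers its FPKM.

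The 4 other anchoring genes did not share 1 direction. Cd151, a tetraspanin that binds integrins α3β1 and α6β4 laterally, rose from 98, 109 and 124 CPM to 213, 265 and 263 CPM. Its log2 fold change was 1.16 (SE 0.20, edgeR adjusted p = 0.0158), and it was 0.53 (adjusted p = 0.0493) with scaling by total counts alone. Relative to Itga6, Cd151 was at 1.16 ± 0.12 in vehicle skin and 2.68 ± 0.11 in rebamipide skin on the log2 scale of FPKM ratios (exact permutation p = 0.1), and relative to Itga3 at 2.30 ± 0.44 and 4.80 ± 0.59. Cd151 was at 1.12 without rebamipide library 3 (adjusted p = 0.0543, edgeR). Erbin, a scaffold protein that binds the β4 integrin and BP230, fell from 60.8, 61.1 and 45.8 CPM to 13.5, 20.1 and 12.5 CPM (log2 fold change -1.86, SE 0.26, edgeR adjusted p = 0.0107). This call held without rebamipide library 3 (-1.73, adjusted p = 0.0323).

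Col7a1, the collagen of the anchoring fibrils below the basement membrane, was at 12.4, 23.3 and 14.6 CPM in vehicle skin and at 9.62, 5.85 and 3.78 CPM in rebamipide skin (adjusted p = 0.0698, edgeR). Fermt1, which encodes kindlin-1, an activator of β1 integrins in keratinocytes, was at 36.9, 27.9 and 9.34 CPM and at 7.84, 1.87 and 0.42 CPM (adjusted p = 0.102, edgeR). For both, no rebamipide value reached the vehicle range, and DESeq2 called both lower (adjusted p = 0.0139 and 0.01). Without rebamipide library 3, edgeR gave adjusted p = 0.148 for Col7a1 and 0.126 for Fermt1, and DESeq2 called Fermt1 (adjusted p = 0.0135) and no longer Col7a1 (adjusted p = 0.0676). Of the 4 genes, edgeR called 1 lower and 1 higher, and DESeq2 called 3 lower and 1 higher. Over all genes edgeR called 6.51% lower and 14.1% higher, and DESeq2 17% and 18.3%.

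Of 24 basement membrane genes outside the epidermal anchoring complex, 23 were tested, of which 4 rose, 1 fell and 18 were not called, with a median log2 fold change of -0.25. These counts lie near the shares of all genes called higher (14.1%) and lower (6.51%). Those that rose were Tinagl1 (1.95, SE 0.32, adjusted p = 0.014), Col4a2 (1.21, adjusted p = 0.0156), Col4a1 (1.00, adjusted p = 0.0321) and Hspg2 (0.91, adjusted p = 0.0385, edgeR). Col4a1 and Col4a2 encode the widespread type IV collagen chains and Hspg2 encodes perlecan. Col4a2 was at 317, 263 and 296 CPM in vehicle skin and at 658, 658 and 708 CPM in rebamipide skin. With scaling by total counts alone only Tinagl1 of the 4 was called higher (1.32, adjusted p = 0.0232), and the others were at 0.30 to 0.59. That scaling called 3 of the 23 lower, where 25.2% of all genes were called lower. On the scale of log2(FPKM + 1), limma called 7 lower and 2 higher, where 4809 of all genes were called lower and 1401 higher. Without rebamipide library 3 again only Tinagl1 was called higher (1.78, adjusted p = 0.036, edgeR). Col4a6, described next, was then not called. The gene that fell, named after its values were seen, was Col4a6, a chain of the epithelial basement membrane, with 11.6, 11.5 and 6.56 CPM against 3.56, 2.18 and 0.916 CPM (log2 fold change -2.15, adjusted p = 0.0426, edgeR). The endothelial markers given above were higher in the same libraries as Col4a1, Col4a2 and Hspg2, and their part in these levels was not tested.

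Among the 20 other integrin subunits, edgeR called 1 higher and 1 lower, against 14.1% and 6.51% of all genes, and the median log2 fold change was -0.75. Itga1, the α1 chain of a collagen receptor, rose from 22.6, 21.9 and 29.2 CPM to 38.5, 71.1 and 91.6 CPM (log2 fold change 1.45, SE 0.35, adjusted p = 0.035), a call that did not pass with scaling by total counts alone (0.79, adjusted p = 0.0699) or without rebamipide library 3 (1.17, adjusted p = 0.0837). Itgb8, the β8 chain of a receptor that activates TGF-β, fell from 6.05, 10.6 and 10.3 CPM to 1.25, 1.87 and 1.22 CPM (log2 fold change -2.63, SE 0.38, adjusted p = 0.0113). Itga2 and Itga8 were next in order of p, with log2 fold changes of -2.45 and -0.92 (edgeR adjusted p = 0.0546 and 0.0624). Without rebamipide library 3, Itga2 was called lower (-1.95, edgeR adjusted p = 0.0296) and Itgb8 stayed so (-2.52, adjusted p = 0.0351). DESeq2 called 5 of the 20 lower and 1 higher, against 17% and 18.3% of all genes. With scaling by total counts alone, edgeR called 6 lower and 0 higher, where 25.2% of all genes were called lower.

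The 5 other plakins were lower in every rebamipide library, as were 24% of all genes. By edgeR 2 of the 5 fell, and by DESeq2 4, against 6.51% and 17% of all genes. Ppl, which encodes periplakin of the cornified envelope, fell from 335, 369 and 233 CPM to 62.9, 42.4 and 5.92 CPM (log2 fold change -3.07, SE 0.82, edgeR adjusted p = 0.0452). Macf1, a widely made linker of actin and microtubules, fell from 262, 215 and 164 CPM to 74.9, 124 and 107 CPM (log2 fold change -1.07, SE 0.28, edgeR adjusted p = 0.0446). Evpl and Eppk1 had log2 fold changes of -3.18 and -1.80 (edgeR adjusted p = 0.112 and 0.068). Without rebamipide library 3, 3 plakins were called lower, among them Ppl (-2.56, edgeR adjusted p = 0.0242) and Evpl (-2.61, adjusted p = 0.0448), and Macf1 was not (-1.10, adjusted p = 0.112).

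**Figure D5:**
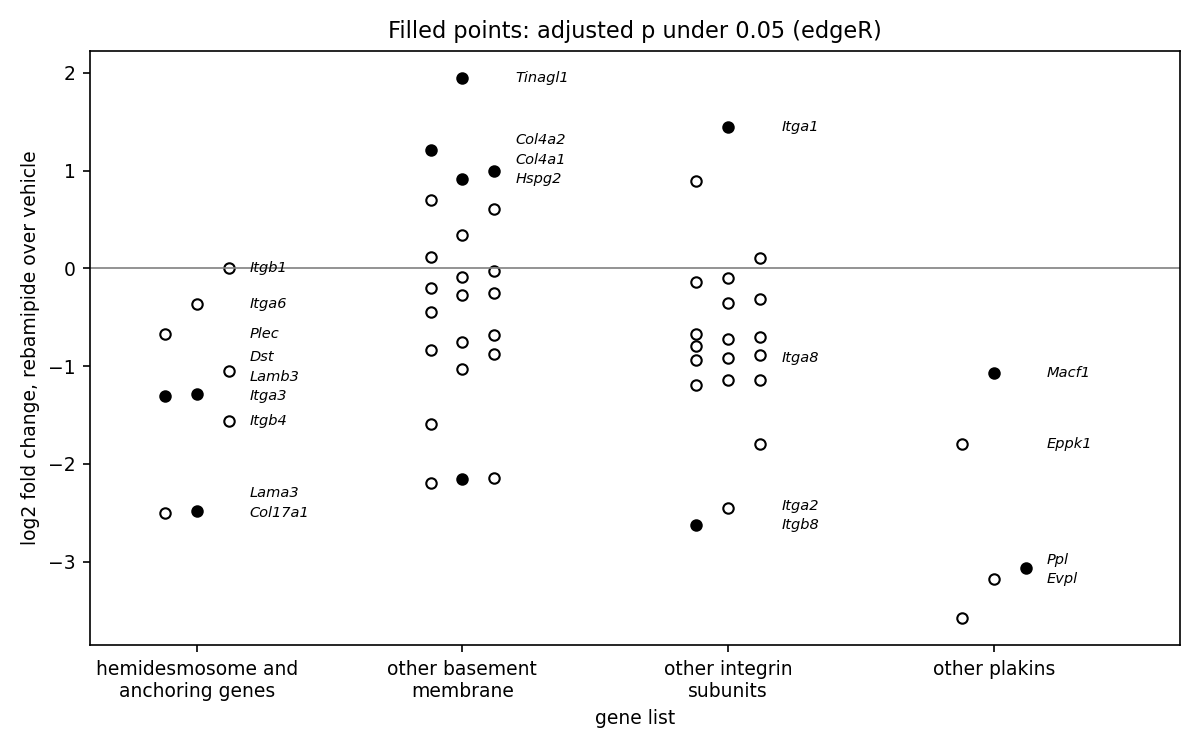
Log2 fold change of rebamipide over vehicle for the 9 genes and for the tested genes of 3 other lists, filled where the adjusted p was under 0.05 by edgeR, with the 9 genes and the 4 of smallest p in each other list labelled beside the points. Basement membrane and integrin genes lie on both sides of 0, and the plakins lie below it, down to -3.58.

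The 5 genes outside the lists with the smallest distance to the Col17a1 profile over the 6 libraries were Slc46a2, Coch, Pla2g4f, Defb1 and Ckmt1 (root mean square distance of 0.156 to 0.278 between log2 CPM centred on each gene's mean, with a prior count of 2). Each had 919 to 3776 counts in vehicle skin and 152 to 699 in rebamipide libraries 1 and 2. In rebamipide library 3 Ckmt1 had 2 counts and the other 4 had 0, against 11 for Col17a1. Their value in that library is thus set by the prior count, so that the order of distances depends on it and on how abundant a gene is, and no likeness of profile is read from it.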

How the data were processed

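Total RNA of 6 skin samples (3 vehicle, 3 rebamipide) was made into poly-A libraries. The submitters' processing notes name fastp 0.22.0, HISAT2 2.1.0, HTSeq 0.9.1 and GRCm39. The authors deposited raw read counts per gene and FPKM values, and the FPKM deposited by the authors equal counts over listed length and summed counts. The gene length is also deposited. All 12 columns of values were matched to samples by name.

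Groups were compared on the deposited counts with edgeR 4.0.16 in R 4.3.3 (TMM, filterByExpr, quasi-likelihood test, Benjamini-Hochberg adjustment over 14875 genes). CPM are counts over TMM-scaled library size. Ratios were compared with a two-sided exact permutation test (SciPy 1.17.1). The study's own tool, DESeq2 1.42.0, was an alternative, as were limma-voom and limma 3.58.1 on log2(FPKM + 1), other scalings and filters, a replicate block, leaving out each library, and the study's thresholds. Fits were tested on simulated data with 200 changed genes and otherwise the same composition in every library. These data hold no library without keratinocyte RNA and so do not show how the fits behave with such a library. The genes and lists were chosen with earlier results of these data known. Named are the 9 genes, the 4 anchoring genes, the 4 genes of smallest p of each other list, Krt5, Krt14 and the 5 profiles nearest to Col17a1. Col4a6, Krt15, Dsg3, Ucp1, Cidea, Otop1, Elovl3, Lep and S100b were named after their values were seen. A further gene and its ratio are not reported here and are outside the 9 pairs. Libraries are separate mice per the study's methods. The depth was 32709801 to 39915276 counts per library, and genes with few counts carry more counting error.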

Additional observations from a re-analysis of the deposited data

How the results depend on the processing

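Of the 9 genes, 3 were called lower by edgeR. The number was 5 with DESeq2, 5 with at least 10 counts required in every sample, 6 with scaling by total counts alone, 8 with log2(FPKM + 1) and limma, 5 with the unadjusted p and fold threshold of the study and 6 with that threshold and DESeq2. It was within 1.5 times with limma-voom and RLE (3 each), without a filter (2) and with the replicate block (2). Leaving out 1 library gave 0 to 5 with edgeR and 3 to 7 with DESeq2. No setting called any of the 9 higher. The DESeq2 fits without 1 library and DESeq2 at the study's threshold were chosen after the data were seen. Over all genes, 968 were lower and 2093 higher by edgeR. The numbers lower were 2534 with DESeq2, 3752 with scaling by total counts alone, 1512 with at least 10 counts in every sample, 4809 with log2(FPKM + 1), 2161 with the study's threshold and 2703 with that threshold and DESeq2, and 1258 were higher with scaling by total counts alone. Leaving out 1 library gave 0 to 1971 lower and 0 to 2810 higher with edgeR. With DESeq2 the numbers lower were 2016 and 3043 without vehicle library 1 or 3 and 4189, 2273 and 1865 without rebamipide library 1, 2 or 3, and the numbers higher were 3416 without vehicle library 3 and 3657 without rebamipide library 1. Scaling by total counts alone and log2(FPKM + 1) leave the median of all genes at -0.78 and -0.46. The cause of the other differences was not tested.

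Col17a1, Itgb4, Itga6, Itga3, Lama3, Lamb3, Dst and Plec kept their sign in all 20 alternatives. Itgb1, at 0.00 by edgeR, was at -0.0018 with DESeq2 and with RLE, -0.0038 with limma-voom, -0.63 with scaling by total counts alone, -0.03 without a filter, -0.07 with at least 10 counts in every sample, -0.01 with the replicate block and -0.62 with log2(FPKM + 1) and limma, which called it lower (adjusted p = 0.0299), and without 1 library it was at -0.13 to 0.15. With DESeq2 it was at -0.11 and -0.02 without vehicle library 1 or 2, and at -0.09 and -0.00066 without rebamipide library 2 or 3. The call of Lamb3 was lost in 7 alternatives, that of Itga3 in 5 and that of Lama3 in 4, each among them without vehicle library 2 and without rebamipide library 2. Same-numbered libraries did not deviate together (correlations of -0.0164, -0.0382 and 0.00316), so the replicate number was not taken as a pairing. With the replicate block Lamb3 was no longer called (adjusted p = 0.111).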
